A study of Mus musculus with 6 samples.

Results

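Erythroid progenitors were followed here in single-cell RNA-seq of sorted mouse bone marrow, in 3 Txnip knock-out (Txnip-KO) and 3 wild-type (WT) samples. Cells were taken from every barcode with at least 500 genes, at least 1000 unique molecular identifiers (UMIs, 1 per captured RNA molecule) and at most 10% mitochondrially encoded UMIs. A cell counted as an erythroid progenitor when it held at least 3 UMIs of Car1 and at least 1 of Klf1, with at most 2 of Pf4, 9 of Mpo and 1 of Siglech. That gave 3683 of 44399 filtered cells. They divide into 417, 775 and 876 cells in Txnip-KO 1, 2 and 3, against 438, 620 and 557 cells in WT 1, 2 and 3. Both groups are described in the labels by tissue and genotype, as Txnip-KO and wildtype bone marrow. The sources used here do not give the strain, the age, the sorted population, the part of Txnip that was deleted or the cells in which it was deleted. Whether each sample is its own animal is also not stated, and the p-values below therefore reflect sample-to-sample spread that could be partly technical.

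Red cells arise in the marrow from progenitors that first divide under stem cell factor and its receptor Kit, then become dependent on erythropoietin, and only later fill with haemoglobin. GATA1 and KLF1 are the transcription factors that switch on the red cell genes, and carbonic anhydrase 1 and the water channel aquaporin 1 appear early on that path. Txnip encodes thioredoxin-interacting protein, an arrestin-fold protein that binds thioredoxin and lowers glucose uptake, and whose gene is switched on by the glucose-sensing factor MondoA.

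The cells carried the genes their label asks for. Besides Car1 and Klf1, which chose them, the erythroid membrane gene Ermap stood at 83.0 CPM (UMI counts scaled to a common library total) in the progenitors and 2.08 CPM in the other filtered cells. Aqp1, the aquaporin 1 gene, stood at 233 against 16.6 CPM, Gata1 at 106 against 17.1 CPM and the erythropoietin receptor gene Epor at 46.9 against 5.23 CPM. Gata2, a transcription factor of earlier progenitors, was also present, at 271 against 139 CPM. These levels describe the selection and were not tested. The Car1 limit does not fall at a gap: the 146 cells with exactly 3 Car1 UMIs had 16.2 CPM of Ermap and 154 CPM of Aqp1, and the 147 cells with 2 Car1 UMIs that met the other limits had 16.2 and 160 CPM. The Klf1 limit lies where Ermap differs more, with 57.1 CPM in the 1235 cells with 1 Klf1 UMI and 32.8 CPM in the 1095 cells with none. Other genes of the path differed less across it. Aqp1 stood at 213 and 173 CPM, Gata1 at 100 and 90.7 CPM and Epor at 38.9 and 36.7 CPM, so this limit is no gap either. The chosen genes are given as levels, with no test. Car1 stood at 1481, 1954 and 1982 CPM in Txnip-KO, against 1901, 2014 and 2191 CPM in WT, and Klf1 at 140, 153 and 188 CPM in Txnip-KO, against 169, 178 and 186 CPM in WT.

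The progenitors held 6942971, 10985622 and 12164479 UMIs in Txnip-KO 1 to 3, and 7504188, 9875810 and 9197321 UMIs in WT 1 to 3. The median per cell was 14142, 12270 and 11522.5 UMIs in Txnip-KO and 16015.5, 14512 and 14957 UMIs in WT, a difference of -2517 UMIs (exact permutation test, two-sided, p = 0.1, the smallest that 3 against 3 samples allow). The median mitochondrial share was between 3.44% and 3.50% in Txnip-KO and between 2.89% and 3.17% in WT. Neutrophil genes varied from library to library, with 10 markers summing to 1284, 13.5 and 178 CPM in Txnip-KO and 522, 16.2 and 14.4 CPM in WT. All 10 were detected, so none of the list was at 0. Between 9 and 23 barcodes were shared by any pair of libraries, 227 in all, and 3 of them were erythroid progenitors.

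As a share of filtered cells, the progenitors made up 6.54%, 9.18% and 10.6% of the Txnip-KO samples and 6.67%, 8.26% and 7.66% of the WT samples. The means were 8.79% ± 2.08 in Txnip-KO and 7.53% ± 0.803 in WT (SD, n = 3 each). Txnip-KO 1 lay below every WT sample and the other two above, and the difference of 1.26 percentage points did not pass an exact permutation test (two-sided, p = 0.5). With at least 6 Car1 and 2 Klf1 UMIs asked for, the difference turned to -0.246 points (exact permutation test, p = 0.9). The sort that preceded the sequencing can set such shares, and its gate is not named in the sources used here.

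The DNA just upstream of 6 genes is shown first, because Klf1, Ermap, Aqp1 and Rhag define or mark the red cell path and Txnip and Arrdc4 are the arrestin-fold genes read most closely. Each line gives the 250 bases before the transcription start from the RefSeq promoter table (mouse build GRCm38.p6), 5′ to 3′ on the gene's strand, in lower case. Capitals mark AGATAA or TGATAA on either strand (read TTATCT or TTATCA on the opposite one), the core bound by GATA factors, in the first 4 genes, and the E-box CACGTG in Txnip and Arrdc4. The windows are chr8:84901732-84901981 on the plus strand for Klf1, chr4:119189996-119190245 on the minus strand for Ermap, and chr17:40810899-40811148 on the plus strand for Rhag. For Aqp1 it is chr6:55336049-55336298 on the plus strand, for Txnip chr3:96557707-96557956 on the plus strand and for Arrdc4 chr7:68749239-68749488 on the minus strand. Car1 has no entry in the table.
Klf1: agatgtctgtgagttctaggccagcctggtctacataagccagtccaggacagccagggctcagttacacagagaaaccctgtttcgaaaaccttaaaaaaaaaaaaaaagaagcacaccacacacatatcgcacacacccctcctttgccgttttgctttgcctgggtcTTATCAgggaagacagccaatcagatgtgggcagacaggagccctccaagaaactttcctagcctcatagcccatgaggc
Ermap: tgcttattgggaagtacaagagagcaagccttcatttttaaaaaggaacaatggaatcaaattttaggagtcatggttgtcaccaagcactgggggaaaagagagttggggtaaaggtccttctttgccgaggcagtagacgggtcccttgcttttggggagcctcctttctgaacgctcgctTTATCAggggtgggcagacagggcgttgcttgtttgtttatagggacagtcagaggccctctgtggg
Rhag: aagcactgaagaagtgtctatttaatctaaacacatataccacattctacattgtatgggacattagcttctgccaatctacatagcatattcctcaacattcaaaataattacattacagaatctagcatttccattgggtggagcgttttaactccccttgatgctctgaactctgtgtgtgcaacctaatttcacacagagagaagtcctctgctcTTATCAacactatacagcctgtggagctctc
Aqp1: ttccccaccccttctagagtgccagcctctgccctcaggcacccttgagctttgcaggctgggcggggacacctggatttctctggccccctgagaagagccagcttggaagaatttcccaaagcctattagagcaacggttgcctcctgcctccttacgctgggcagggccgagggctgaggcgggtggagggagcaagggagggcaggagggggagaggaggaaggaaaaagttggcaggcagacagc
Txnip: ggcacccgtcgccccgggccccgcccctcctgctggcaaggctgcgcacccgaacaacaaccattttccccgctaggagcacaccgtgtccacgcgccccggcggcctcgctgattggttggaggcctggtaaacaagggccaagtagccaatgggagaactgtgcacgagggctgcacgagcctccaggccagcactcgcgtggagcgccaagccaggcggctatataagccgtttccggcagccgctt
Arrdc4: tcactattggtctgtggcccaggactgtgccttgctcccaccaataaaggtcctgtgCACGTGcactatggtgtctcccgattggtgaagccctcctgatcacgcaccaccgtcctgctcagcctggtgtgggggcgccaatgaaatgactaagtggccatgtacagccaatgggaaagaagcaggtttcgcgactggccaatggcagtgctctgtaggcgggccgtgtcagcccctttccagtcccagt
The GATA core occurs 80 bases before the start of Klf1, 67 before that of Ermap and 31 before that of Rhag, and not in the Aqp1 window. It occurs in 16.6% of the 32851 promoters of the same length. The E-box CACGTG occurs 193 bases before the start of Arrdc4, in 6.02% of all promoters, and not in the Txnip window. Only these exact letters were sought, so a related site with other letters would not be marked in either window. Such a match describes the letters and is not evidence of binding.

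Txnip itself was nearly absent from the knock-out progenitors. Its level was 3.33, 4.80 and 0.669 CPM in Txnip-KO 1, 2 and 3, against 418, 246 and 327 CPM in WT 1, 2 and 3. From here on, CPM are scaled by the trimmed mean of M values (TMM) over the UMIs summed per sample. The counts behind them were 24, 52 and 8 UMIs in Txnip-KO and 3161, 2443 and 2926 UMIs in WT. All 3 knock-out libraries thus match their label, with a log2 fold change (SE 0.39) of -6.86 (edgeR adjusted p = 8.31e-06).

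Across the genome, 11121 genes were abundant enough to test and 3352 changed, which is 30.1% of them. Of these 1601 were higher in Txnip-KO progenitors (14.4% of genes tested) and 1751 lower (15.7%). Over all genes 1384 rose and 1539 fell without Txnip-KO 1, 1178 and 1293 without Txnip-KO 2, and 1770 and 1911 without Txnip-KO 3. The counts were 1245 and 1414 without WT 1, 810 and 927 without WT 2 (1737 in all), and 937 and 1149 without WT 3 (2086 in all). With the replicate number as a block 1929 rose and 2136 fell. Between 11121 and 11352 genes were tested in these settings. The groups did not overlap at all for 5129 genes, 46.1% of those tested. The shares called with all samples are the background for the lists that follow, in which a share near 14.4% higher or 15.7% lower is what the whole genome gave. A list count for another setting is to be read against the counts over all genes in that setting, which fall or rise with it.

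The broadest difference lay in the genes of DNA replication. Of 43 S phase genes, all tested, 40 were lower in Txnip-KO progenitors and 0 higher, with a median log2 fold change of -0.86 against 0.01 over all genes. Tyms, which makes thymidylate for DNA synthesis, had 31.4, 37.3 and 38.6 CPM in Txnip-KO and 116, 118 and 105 CPM in WT. Its groups lay far apart, with a log2 fold change (SE 0.095) of -1.66 (adjusted p = 8.31e-06). Uhrf1, which copies DNA methylation onto new strands, averaged 30.5 ± 0.740 CPM in Txnip-KO and 75.9 ± 3.97 CPM in WT (SD, n = 3 each). The flap endonuclease Fen1 averaged 44.0 ± 1.09 CPM in Txnip-KO and 87.9 ± 4.82 CPM in WT. The log2 fold change of Uhrf1 was -1.31. Outside the list, Pclaf, a partner of the sliding clamp PCNA, fell with a log2 fold change of -1.79, and Asf1b, a histone chaperone of replication, with -1.80. Dscc1, an S phase gene of the list and part of the clamp loader of sister chromatid cohesion, fell with -1.48. Fen1 did not pass among cells called G1.

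Of 52 G2M genes 31 fell and 0 rose, with a median of -0.54, and without WT 2 the count was 20. The tubulin Tubb4b averaged 268 ± 9.93 CPM in Txnip-KO and 526 ± 19.7 CPM in WT, and Cks1b, a subunit of cyclin-dependent kinases, 102 ± 0.337 CPM in Txnip-KO and 168 ± 4.96 CPM in WT. Cdk1, the kinase that drives mitosis, was at 49.1, 35.7 and 42.2 CPM in Txnip-KO against 88.1, 83.4 and 73.1 CPM in WT. Neither Cks1b nor Cdk1 passed among cells called G1. Among 22 cyclins, inhibitors and regulators of G1, 7 fell and 3 rose, 4 and 3 without WT 1 and 8 and 1 without WT 3. E2f1, which switches on S phase genes, fell with a log2 fold change of -1.12 and Ccne2, a cyclin of S phase entry, with -1.32, while the D-type cyclin gene Ccnd2 stood at 274 ± 24.6 CPM in Txnip-KO and 273 ± 16.2 CPM in WT.

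Each cell was also given a phase. For this every progenitor was thinned to 5000 UMIs, which left 3665 and put aside 18 that were shallower. Cells called S or G2M made up 48.3%, 49.5% and 44.4% of the progenitors in Txnip-KO, against 77.5%, 76.7% and 72.5% in WT. The groups lay apart by -28.2 percentage points (exact permutation test, two-sided, p = 0.1). Calls of S were 33.8% ± 2.83 in Txnip-KO and 57.8% ± 2.79 in WT, and calls of G2M 13.6% ± 1.73 in Txnip-KO and 17.7% ± 3.12 in WT (SD, n = 3 each). The calls are built from the very S and G2M genes just described, so the shares restate those levels per cell and are no measure of division on their own. When only the progenitors called G1 were summed, 858 of 9200 genes changed (9.33%) in place of 3352 of 11121, with 413 higher (4.49%) and 445 lower (4.84%). In that sum 33 of the S phase genes could be tested, of which 3 fell and 1 rose, and 28 of the G2M genes, of which 1 fell. A cell was called G1 for low scores of these same lists, so fewer calls of their genes follow in part from that choice. The sum held 215, 390 and 485 cells in Txnip-KO and 98, 144 and 151 cells in WT, fewer than the full sums. Each gene said not to pass among cells called G1 is to be read with these limits. Of the 134 changed genes named, 119 could be tested in that sum. A gene without such a remark therefore need not have passed there. Uhrf1, Pclaf, Asf1b, Dscc1, E2f1, Ccne2, H3c3, H2ac4 and Aunip could each be tested under 17 alternatives, against 18 for Tyms.

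**Figure D1:**
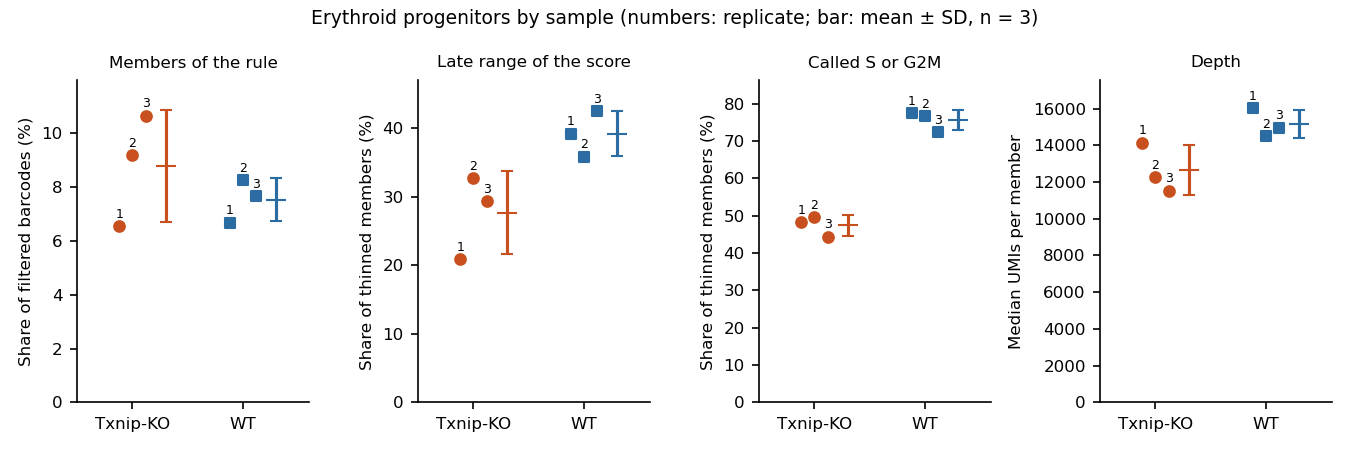
Values per sample (points, numbered by replicate) with mean and SD (bars, n = 3 each), Txnip-KO left and WT right, in 4 panels: share of filtered cells that are erythroid progenitors (%), share of progenitors in the late range of the maturity score (%), share called S or G2M (%), and median UMIs per progenitor. The share called S or G2M lies between 44.4% and 49.5% in Txnip-KO and between 72.5% and 77.5% in WT, with no overlap, while the share of filtered cells overlaps.

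Maturity was ranked within the progenitors by a score of 21 late genes, such as Ermap, Aqp1, Tfrc and the globins, minus 20 early genes, such as Cd34, Gata2, Sox4 and Meis1, and cells of all samples together were divided into 3 equal ranges, early, middle and late. The late range held 20.9%, 32.7% and 29.4% of the progenitors in Txnip-KO and 39.2%, 35.9% and 42.4% in WT, a difference of -11.5 points (exact permutation test, two-sided, p = 0.1). The early range held 49.3%, 32.6% and 41.2% in Txnip-KO and 26.6%, 26.7% and 22.8% in WT, so the groups lay apart at both ends. Genes of the score changed with genotype themselves, on both sides of it: among the late genes tested 10 rose and 2 fell, and among the early genes 7 rose and 1 fell. The ranges are ranges of a score and not cell types, and 484 and 441 cells lay within 0.05 score units of the lower and the upper limit. Within cells called G1 the late share differed by -8.42 points (exact permutation test, p = 0.2) and within cells called S by -5.29 points (p = 0.6). The share called S or G2M was lower in Txnip-KO within each range, by -24.2 points in the early, -32.5 in the middle and -19.9 in the late range (exact permutation test, p = 0.1 each).

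The largest rises joined genes of several kinds. Trnp1, a nuclear protein gene known from neural progenitors, was counted 906, 204 and 229 times in Txnip-KO and 1, 2 and 2 times in WT. The ratio of the summed rates was 237, with an exact 95% interval from 101 to 730 that covers counting error only. Slc28a2, a concentrative nucleoside transporter, stood at 38.4, 14.7 and 11.8 CPM in Txnip-KO and 2.38, 1.91 and 1.67 CPM in WT (log2 fold change 3.40, adjusted p = 0.000965). Both genes were highest in Txnip-KO 1, and even the lowest knock-out sample lay above every WT sample. Rhag, the Rh-associated glycoprotein of the red cell membrane, had 83.1, 43.2 and 58.2 CPM in Txnip-KO and 7.28, 7.25 and 11.0 CPM in WT. Its log2 fold change was 2.84 (SE 0.25, adjusted p = 0.000103).

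Hdc, which makes histamine, rose to 48.7, 11.6 and 47.0 CPM in Txnip-KO, against 4.63, 4.83 and 4.02 CPM in WT. Gpr183, an oxysterol receptor that guides immune cells, rose to 71.3, 21.9 and 50.2 CPM in Txnip-KO, against 7.01, 5.84 and 11.4 CPM in WT. In both, Txnip-KO 2 was the lowest knock-out sample and still above every WT sample. The metallothionein genes, whose proteins hold zinc and copper, moved together, with Mt2 at 87.9 ± 19.5 CPM in Txnip-KO and 20.5 ± 1.47 CPM in WT and Mt1 at 386 ± 67.7 CPM in Txnip-KO and 227 ± 26.2 CPM in WT. Per1, a repressor of the circadian clock, rose with a log2 fold change of 1.99, Ddit4, a brake on the growth kinase mTORC1, with 1.98, and the small membrane glycoprotein gene Smagp with 1.89. Polr3gl, a subunit gene of RNA polymerase III, rose to 179, 185 and 69.4 CPM in Txnip-KO, against 27.2, 26.3 and 28.2 CPM in WT. In RefSeq gene order on chromosome 3 it is the next protein-coding gene to Txnip, and a link between the deletion and its level was not tested.

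The largest falls were replication and histone genes together with a pair of mitochondrial ones. Lars2, which charges mitochondrial transfer RNA with leucine, had 94.4, 70.4 and 66.0 CPM in Txnip-KO and 384, 289 and 366 CPM in WT (log2 fold change -2.18, adjusted p = 2.8e-05). Oxct1, which starts the use of ketone bodies for energy, had 21.1, 25.0 and 24.6 CPM in Txnip-KO and 88.6, 88.9 and 72.2 CPM in WT (log2 fold change -1.81, adjusted p = 8.31e-06). Every knock-out sample was below every WT sample by a wide margin in both. The histone genes H3c3, H2ac4, H1f5 and H2ac20 fell with log2 fold changes of -1.93, -1.76, -1.65 and -1.56. Their copies are near-identical in sequence, so the counts of single histone genes are uncertain, and H1f5 and H2ac20 no longer passed among cells called G1. Aunip, a partner of the mitotic kinase Aurora A, fell with -1.56.

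**Figure D2:**
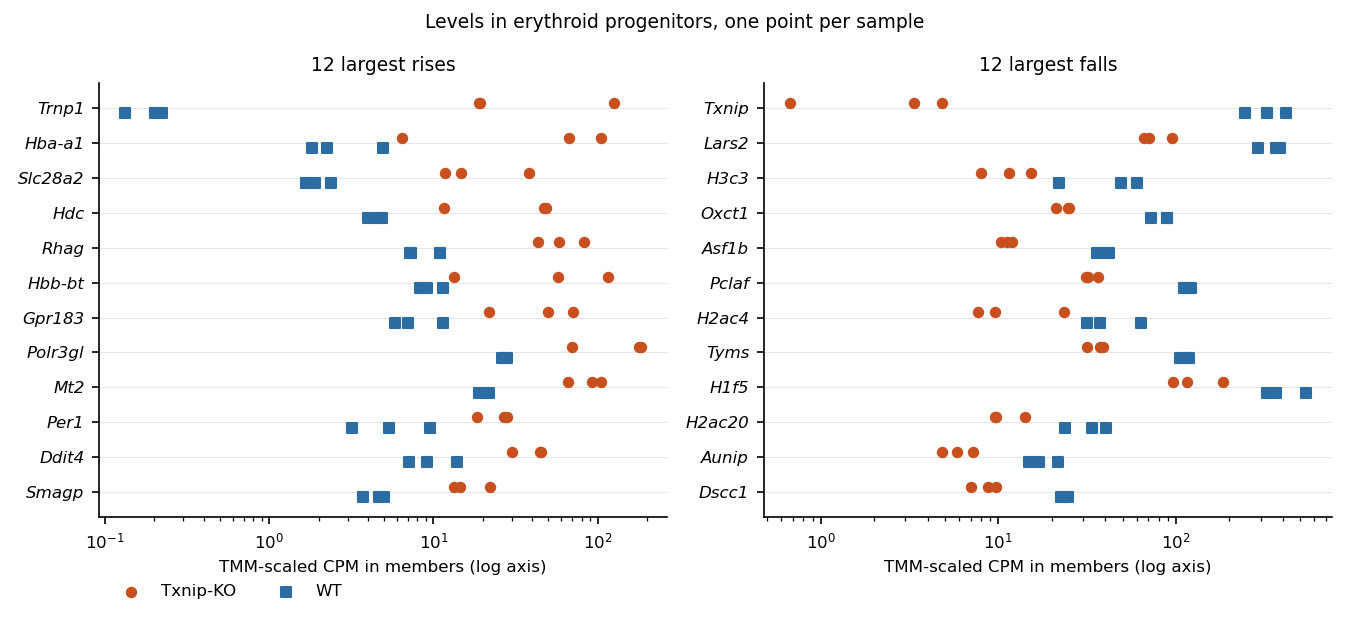
TMM-scaled CPM per sample on a log axis for the 12 largest rises and the 12 largest falls in erythroid progenitors, with a circle for each Txnip-KO sample above a square for each WT sample. For every gene shown the 3 Txnip-KO points lie on one side of the 3 WT points, as the naming rule requires.

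Among transcription factors and other regulators of the erythroid path, changes went both ways. Of 37 tested members of a list of 39, 10 rose and 7 fell, with a median log2 fold change of 0.12. Without WT 2, 5 rose and 5 fell. The RNA-decay protein gene Zfp36l2, which in the mouse holds early erythroid progenitors in self-renewal, stood at 911, 840 and 701 CPM in Txnip-KO and 449, 494 and 538 CPM in WT (log2 fold change 0.73, adjusted p = 0.000997). The groups did not overlap. Zfpm1, the GATA1 cofactor also called FOG1, had 145, 130 and 134 CPM in Txnip-KO and 207, 231 and 189 CPM in WT (log2 fold change -0.61, adjusted p = 0.00117). Gata1, named after its values were seen, stood at 93.5 ± 7.16 CPM in Txnip-KO and 120 ± 3.76 CPM in WT (log2 fold change -0.36, adjusted p = 0.00934). It no longer passed among cells called G1.

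The Krüppel-like factor genes Klf13 and Klf3 rose, Klf13 to 102 ± 10.8 CPM in Txnip-KO against 66.5 ± 2.85 CPM in WT and Klf3 to 63.9 ± 7.64 CPM in Txnip-KO against 37.0 ± 10.5 CPM in WT. Hmgb2, a chromatin protein abundant in dividing progenitors, fell to 1110 ± 27.8 CPM in Txnip-KO against 1576 ± 64.3 CPM in WT. Smaller rises were measured for Ssbp2, Mafg and Tfdp2, between 0.35 and 0.40 on the log2 scale. None of Klf3, Hmgb2, Ssbp2, Mafg and Tfdp2 passed among cells called G1. Core factors that did not pass the test were Tal1 at 69.0 ± 8.59 CPM in Txnip-KO and 74.5 ± 2.89 CPM in WT, Gfi1b at 83.9 ± 6.08 CPM in Txnip-KO and 83.6 ± 3.83 CPM in WT, Nfe2 at 94.2 ± 9.89 CPM in Txnip-KO and 104 ± 2.29 CPM in WT, and Gata2 at 284 ± 36.7 CPM in Txnip-KO and 261 ± 9.38 CPM in WT.

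Of the genes that carry the erythropoietin and stem cell factor signals, 6 of 20 tested rose and 3 fell. Without WT 2, 3 rose and 0 fell, and without Txnip-KO 1, Txnip-KO 2 or WT 3 the counts were 4 and 1, 3 and 2, and 3 and 1. Kit stood at 339, 293 and 272 CPM in Txnip-KO and 220, 208 and 181 CPM in WT, a log2 fold change of 0.57 (adjusted p = 0.00302). Gab2, an adaptor below Kit, had a log2 fold change of 0.94 and the insulin receptor gene Insr one of 0.65, and neither passed with matched maturity ranges. Epor stood at 40.2, 42.8 and 45.9 CPM in Txnip-KO and 49.1, 49.0 and 55.7 CPM in WT, with no overlap. Its log2 fold change of -0.25 had an adjusted p of 0.0449 and missed the threshold under 11 of the alternatives tried. Jak2, the kinase bound to the receptor, was at 50.8 ± 7.36 CPM in Txnip-KO and 45.7 ± 3.45 CPM in WT, and Stat5a, the factor it activates, at 90.6 ± 4.95 CPM in Txnip-KO and 77.6 ± 4.02 CPM in WT. Neither passed, with adjusted p values of 0.327 and 0.0562.

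Globin messages were higher in the knock-out, most in Txnip-KO 1 and 3, but in a few cells. Hba-a1 had 66.8, 6.46 and 104 CPM in Txnip-KO and 2.25, 1.81 and 4.91 CPM in WT. Of 5 tested genes of the globin list 4 rose, the exception being the haem-regulated kinase gene Eif2ak1. Hba-a2 had 25.4, 2.12 and 44.9 CPM in Txnip-KO and 1.32, 0.907 and 2.455 CPM in WT. Hbb-bs had 36.6, 3.14 and 112 CPM in Txnip-KO and 6.22, 7.55 and 7.14 CPM in WT. Both overlap, with Txnip-KO 2 among the WT values of Hba-a2 and below those of Hbb-bs. The call of Hbb-bs was lost under 7 of the alternatives tried. In Txnip-KO, 2, 5 and 16 progenitors held 10 or more globin UMIs, and these cells held 1241, 137 and 4300 of the 1343, 272 and 4515 globin UMIs of their samples. In WT there were 0, 2 and 2 such cells. With them left out, a choice made after seeing the data, 0 globin genes were called higher. Hba-a1, Hba-a2, Hbb-bt and Hbb-bs then had log2 fold changes of 0.16, 0.25, 0.17 and -1.31. The cells were left out by the UMIs of these same genes, so the loss of the rises follows in part from the cut. For the same reason the value of Hbb-bs is given without a test. Hba-a1 and Hba-a2 are near-identical copies, so reads between them cannot be assigned with certainty.

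Of 24 tested genes of haem synthesis and transport 4 fell and 1 rose, with a median log2 fold change of -0.18, and without Txnip-KO 3, 10 fell and 1 rose. The share that fell with all samples, 16.7%, lay near the 15.7% over all genes, and 4.17% rose, against 14.4%. Alad, which joins the early precursors into a ring unit, had 68.8, 81.7 and 93.6 CPM in Txnip-KO and 121, 112 and 122 CPM in WT (log2 fold change -0.53, adjusted p = 0.00533). Tmem14c, which moves porphyrin across the mitochondrial membrane, had 157 ± 18.4 CPM in Txnip-KO and 220 ± 7.15 CPM in WT. Blvra, a biliverdin reductase, fell with a log2 fold change of -0.78. Fech, the enzyme that puts iron into haem, was the gene that rose, at 26.6, 29.3 and 32.9 CPM in Txnip-KO against 22.5, 20.5 and 16.7 CPM in WT. Its log2 fold change of 0.58 was 0.21 among cells called G1 and 0.18 with thinned barcodes, where it did not pass. Blvra did not pass among cells called G1, nor Alad with matched maturity ranges. Urod, an enzyme between Alad and Fech, had 73.6 ± 6.21 CPM in Txnip-KO and 84.9 ± 5.78 CPM in WT and did not pass the test. With the replicate number as a block 8 genes of the list fell and 1 rose.

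Of 25 tested iron genes 4 fell and 3 rose, 1 and 1 without WT 2, 2 and 0 without WT 3 and 3 and 0 without Txnip-KO 2. The shares with all samples, 16% lower and 12% higher, lay near those over all genes, 15.7% and 14.4%. Steap3, which reduces iron taken up with transferrin, had 20.8, 29.2 and 29.6 CPM in Txnip-KO and 41.0, 42.8 and 36.0 CPM in WT. The transferrin receptor gene Tfrc was at 23.7, 24.6 and 29.8 CPM in Txnip-KO and 19.0, 22.8 and 16.7 CPM in WT, with an adjusted p of 0.0457 (edgeR). Tfrc missed the threshold under 10 of the alternatives tried, with log2 fold changes there between 0.12 and 0.48. Steap3 did not pass without WT 2 or among cells called G1.

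Of 24 tested genes of the red cell membrane list 6 rose and 2 fell, 5 and 1 without WT 2, with the replicate number as a block 7 and 4, with a median log2 fold change of 0.19. Besides Rhag, Cd24a, a small anchored surface protein that marks erythroid stages in the mouse, had 179, 171 and 230 CPM in Txnip-KO and 60.2, 78.2 and 86.8 CPM in WT (log2 fold change 1.37, adjusted p = 0.000257). Xk, the partner of the Kell blood group protein, rose to 37.2 ± 8.14 CPM in Txnip-KO against 21.1 ± 0.999 CPM in WT. Ermap, a marker of the label, had 92.4, 102 and 101 CPM in Txnip-KO and 79.6, 58.6 and 59.9 CPM in WT (log2 fold change 0.58, adjusted p = 0.00496). Aqp1, its companion marker, had 192, 233 and 272 CPM in Txnip-KO and 235, 218 and 232 CPM in WT, which overlap. Icam4, an adhesion protein of erythroid cells, was one of the falls, with 42.5, 63.5 and 61.9 CPM in Txnip-KO and 86.8, 98.6 and 96.5 CPM in WT. Ermap and the tetraspanin gene Tspan33, which rose with a log2 fold change of 0.57, did not pass among cells called G1.

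Of 30 tested enzymes and other genes that mark erythroid stages 9 rose and 4 fell, 7 and 2 without WT 2 and 8 and 2 without WT 3. Ctse, the protease cathepsin E, had 73.3, 70.3 and 59.1 CPM in Txnip-KO and 30.2, 28.9 and 32.8 CPM in WT (log2 fold change 1.14, adjusted p = 9.46e-05). Rgcc, a regulator of the cell cycle, rose with a log2 fold change of 1.53, at 9.76 ± 2.37 CPM in Txnip-KO and 3.38 ± 0.322 CPM in WT. Vamp5, a vesicle protein, fell to 716 ± 71.0 CPM in Txnip-KO against 1029 ± 46.9 CPM in WT. Blvrb, an erythroid flavin reductase, and Car2, carbonic anhydrase 2, had log2 fold changes of -0.17 and 0.02 and did not pass.

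**Figure D3:**
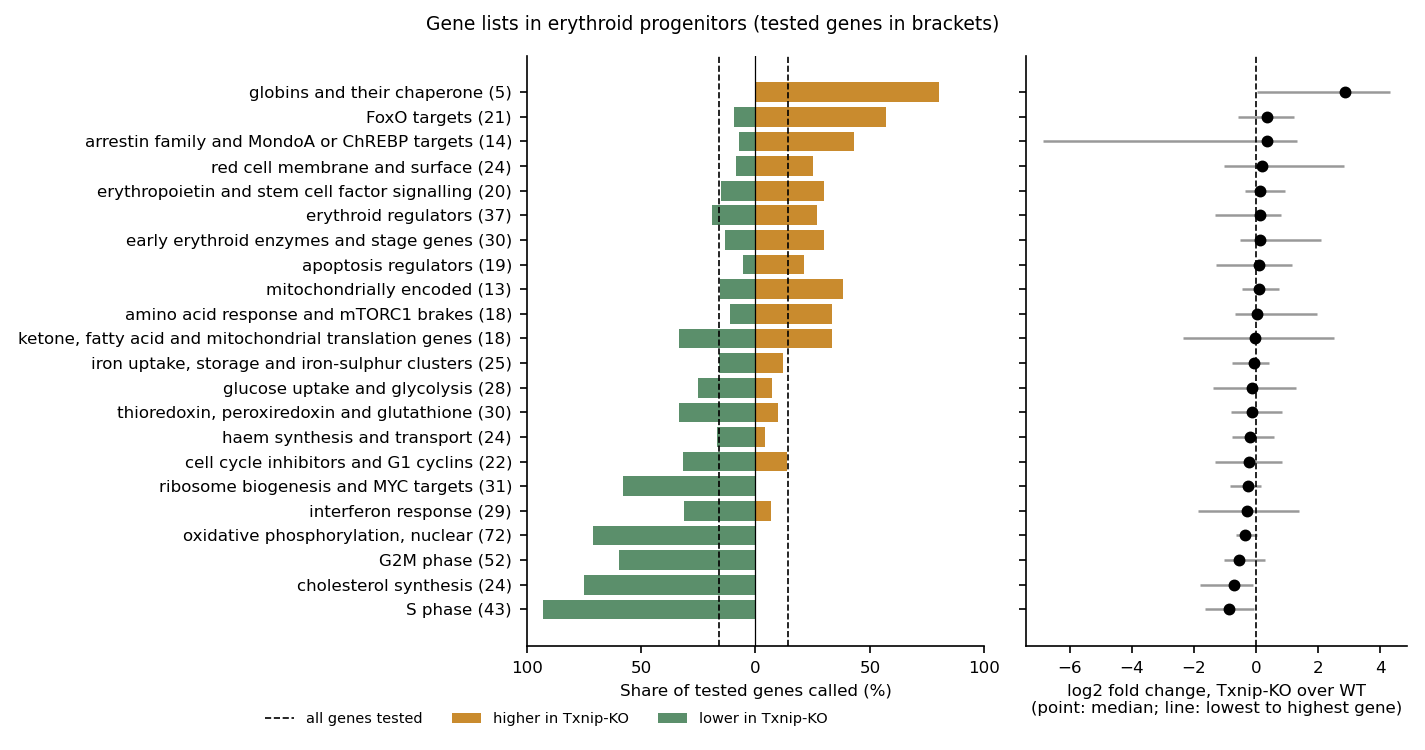
Left, share of tested genes in each list (number in brackets) called higher (to the right) or lower (to the left) in Txnip-KO, with dashed lines at the shares over all genes, 14.4% and 15.7%; right, median log2 fold change (point) and the lowest to highest gene (line), with the median of all genes dashed. S phase, G2M, cholesterol, ribosome and nuclear oxidative phosphorylation lists have no bar to the right, while the erythroid lists other than globins have bars on both sides.

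Among genes of the arrestin family and the targets of MondoA or its relative ChREBP, the factors that read glucose, 6 of 14 tested rose and 1, Txnip, fell. Without Txnip-KO 3, 7 rose and 2 fell. Arrdc4, the closest arrestin relative among them, had 32.3, 32.5 and 35.5 CPM in Txnip-KO and 15.9, 9.27 and 15.5 CPM in WT (log2 fold change 1.32, adjusted p = 0.000784). The Krüppel-like factor genes Klf10 and Klf11 rose with log2 fold changes of 1.23 and 1.15. Arrdc3 and Arrdc2, other arrestin genes, had log2 fold changes of 0.24 each and did not pass.

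Of 30 thioredoxin, peroxiredoxin and glutathione genes 10 fell and 3 rose, 5 and 0 without WT 2 or without WT 3. Txn1, the thioredoxin that the Txnip protein binds, had 317, 350 and 401 CPM in Txnip-KO and 486, 488 and 524 CPM in WT (log2 fold change -0.49, adjusted p = 0.0035). Prdx1, a peroxide-removing partner of thioredoxin, had 324 ± 30.7 CPM in Txnip-KO and 500 ± 47.0 CPM in WT. Both kept every knock-out sample below every WT sample.

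Of 28 glucose uptake and glycolysis genes 7 fell and 2 rose, 4 and 2 without WT 2. Hk2, a hexokinase, had 5.13, 3.88 and 4.85 CPM in Txnip-KO and 9.79, 13.3 and 12.4 CPM in WT (log2 fold change -1.37, adjusted p = 0.00074). Hk1, the more widespread hexokinase gene, had 145 ± 7.10 CPM in Txnip-KO and 152 ± 6.56 CPM in WT and did not pass. Slc16a1, a lactate transporter, fell with a log2 fold change of -0.69 and Ldha, lactate dehydrogenase A, with -0.41. Pfkfb3, which raises the rate of glycolysis, rose with 0.98. Ldha and Pfkfb3 did not pass among cells called G1.

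Of 72 nuclear genes of oxidative phosphorylation 51 fell and 0 rose, with a median log2 fold change of -0.35. Without WT 2, 24 fell, and without WT 3, 26 fell. Cytochrome c, encoded by Cycs, had 155, 172 and 195 CPM in Txnip-KO and 261, 274 and 278 CPM in WT (log2 fold change -0.64, adjusted p = 0.000997). The complex I subunit gene Ndufa9 had 53.0 ± 1.54 CPM in Txnip-KO and 75.3 ± 0.964 CPM in WT. Of the 13 genes of the mitochondrial genome 5 were higher and 2 lower. Without WT 2 the counts were 2 and 1, 2 and 2 without WT 3 and 5 and 1 without WT 1. The complex IV gene mt-Co1 had 4341, 4798 and 4701 CPM in Txnip-KO and 2991, 2657 and 2713 CPM in WT (log2 fold change 0.73, adjusted p = 0.000171), and mt-Co3 rose with 0.41. The short gene mt-Atp8 fell with -0.46.

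Of 24 tested genes of cholesterol synthesis 18 fell and 0 rose, with a median log2 fold change of -0.69. With barcodes thinned before the rule 9 of 21 fell (over all genes then tested, 8.16% rose and 9.49% fell), and among cells called G1 9 of 20. Idi1, an isomerase of the isoprenoid steps, had 11.7, 16.4 and 13.9 CPM in Txnip-KO and 37.8, 42.5 and 34.9 CPM in WT (log2 fold change -1.45, adjusted p = 0.00016). Msmo1, which removes methyl groups from the sterol ring, fell with -1.11. The mevalonate kinase gene Mvk, at 3.29 ± 0.276 CPM in Txnip-KO and 10.8 ± 1.24 CPM in WT, had a log2 fold change of -1.70 and did not pass with thinned barcodes.

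Genes of fatty acids, ketone bodies and mitochondrial translation, Lars2 among them, were divided, with 6 of 18 higher and 6 lower. Cpt1a, which admits fatty acids to mitochondria, had 52.0, 48.4 and 46.4 CPM in Txnip-KO and 30.4, 29.0 and 33.1 CPM in WT (log2 fold change 0.66, adjusted p = 0.0007). Acat1, which acts with Oxct1 on ketone bodies, had 69.5 ± 4.49 CPM in Txnip-KO and 107 ± 4.88 CPM in WT.

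Of 31 ribosome biogenesis genes and targets of MYC 18 fell and 0 rose, with a median of -0.27, and without WT 2, 9 fell. Eif4a1, a helicase of translation initiation, had 504, 548 and 520 CPM in Txnip-KO and 737, 802 and 844 CPM in WT (log2 fold change -0.60, adjusted p = 0.000518). Nme1, a nucleoside diphosphate kinase, fell with -0.53. Myc itself stood at 225 ± 30.4 CPM in Txnip-KO and 212 ± 28.7 CPM in WT and did not pass.

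Of 21 targets of the FoxO factors, which act when growth signals are low, 12 rose and 2 fell, 6 and 1 without WT 2 and 7 and 1 without WT 3. Pik3ip1, an inhibitor of PI3 kinase, had 94.5, 104 and 61.4 CPM in Txnip-KO and 37.0, 34.3 and 39.2 CPM in WT (log2 fold change 1.23, adjusted p = 0.000816). Cited2, a transcriptional cofactor, rose with 0.53. Among 18 genes of the amino acid response and the mTORC1 brakes 6 rose and 2 fell, but the rises numbered 2 without WT 2 or WT 3 and 3 without Txnip-KO 2, Txnip-KO 3 or WT 1. Of 19 apoptosis regulators 4 rose and 1 fell, 2 and 0 without Txnip-KO 2, WT 2 or WT 3, 3 and 3 without Txnip-KO 3 and 2 and 1 without WT 1. Birc3, a survival factor, rose with a log2 fold change of 1.14.

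Of 29 interferon response genes 9 fell and 2 rose. Without WT 1, 2 and 3 the counts were 9 and 1, 11 and 1, and 7 and 1. Zbp1, a sensor of unusual nucleic acids, fell with a log2 fold change of -1.87. A neighbouring pair of membrane proteins went opposite ways. Ifitm3 had 151, 130 and 182 CPM in Txnip-KO and 237, 263 and 274 CPM in WT, while Ifitm1 had 1777, 810 and 2973 CPM in Txnip-KO and 570, 840 and 703 CPM in WT. Ifitm1 overlaps, because Txnip-KO 2 lies below WT 2, and its rise (log2 fold change 1.40, adjusted p = 0.0142) was lost without WT 1 or without WT 3.

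The 14 markers of stem cells summed to 439, 460 and 386 CPM in Txnip-KO progenitors and 346, 334 and 311 CPM in WT ones. Of 11 tested stem cell markers 6 rose and 0 fell, and with the same number of cells taken from each range of the maturity score 1 rose and 1 fell. Some of these markers, Cd34 among them, are early genes of the score, so matching on it can narrow their differences by construction. The matched sum held 261 cells per sample, and of 10129 genes tested in it 905 rose and 988 fell. Cd34, a surface protein of early progenitors, had 40.5, 46.7 and 36.9 CPM in Txnip-KO and 14.9, 23.1 and 24.2 CPM in WT. Sox4, a transcription factor of progenitors and, like Cd34, an early gene of the score, had 406 ± 63.5 CPM in Txnip-KO and 242 ± 15.6 CPM in WT (log2 fold change 0.75, adjusted p = 0.00107). Tcf4, a marker of plasmacytoid dendritic cells, was 1 of 6 tested markers of those cells to rise, with 0.62, and their 10 markers summed to 181, 223 and 223 CPM in Txnip-KO and 178, 173 and 181 CPM in WT.

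The 14 megakaryocyte markers summed to 178, 165 and 176 CPM in Txnip-KO and 209, 198 and 209 CPM in WT, with Gp6 at 0, and this list holds Pf4, which the rule limits. Gp5, a subunit of the platelet receptor for von Willebrand factor, had 14.7, 16.8 and 11.5 CPM in Txnip-KO and 44.6, 37.0 and 37.0 CPM in WT (log2 fold change -1.47, adjusted p = 0.000204). The 12 basophil and mast cell markers, Hdc among them, summed to 208, 147 and 137 CPM in Txnip-KO and 210, 91.2 and 189 CPM in WT, with the mast cell gene Tpsb2 at 0. The basophil protease gene Mcpt8 had 20.4, 9.42 and 1.59 CPM in Txnip-KO and 50.8, 4.94 and 33.0 CPM in WT, an order unlike that of Hdc. The 12 granulocyte and monocyte progenitor markers summed to between 379 and 439 CPM in Txnip-KO and between 388 and 445 CPM in WT. Of 9 tested, Prtn3, Ctsg and Fcgr3 rose, and 0 did so without WT 2. Of 10 tested lymphoid markers 2 fell and 0 rose, and of 2 tested macrophage markers none passed the test, with 10 macrophage markers summing to between 10.9 and 15.7 CPM in Txnip-KO and between 8.91 and 9.79 CPM in WT. The 11 stromal markers summed to 30.4, 41.8 and 39.5 CPM in Txnip-KO and 19.5, 19.8 and 19.6 CPM in WT. The part of these cells or their RNA in the results was not tested.

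To see where the erythroid response differed, the genotype effect was compared with that in 3 other sets of cells from the same samples, chosen by marker UMIs in the same way. All held at most 2 Car1 and 1 Siglech UMIs, at most 2 of Pf4 outside the Pf4 set and at most 9 of Mpo outside the Mpo set. The Pf4 set held at least 3 Pf4 and 1 Itga2b UMIs (1341 cells, megakaryocyte-related), the Mpo set at least 10 Mpo and 0 Klf1 UMIs (4042 cells, granulocyte- and monocyte-related), and the Hlf set at least 1 Hlf and 0 Klf1 UMIs (8664 cells, stem-related). Within the sets themselves 2372 of 10424 genes changed in the Pf4 set (22.8%; 10.4% higher and 12.4% lower), 4709 of 11702 in the Mpo set (40.2%; 18.9% and 21.4%) and 4647 of 12454 in the Hlf set (37.3%; 17.4% and 19.9%). The difference of the fold changes was tested as an interaction with the sample as a block.

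Against the Pf4 set the effect differed for 164 of 11332 genes, 1.45% of those tested, with 53 differences positive (0.468%) and 111 negative, and with DESeq2's scaling 56 and 73. More were positive than negative without Txnip-KO 2, 90 and 56, and with no filter on low counts, 326 and 211. The count was 266 without Txnip-KO 1, 101 without Txnip-KO 3, and 72, 86 and 40 without WT 1, 2 and 3. Of 43 S phase genes 11 had a negative difference and 0 a positive one (background 0.980% negative), among them Tyms, Uhrf1 and Prim1. Gp5 fell in the erythroid progenitors but had 88.7, 111 and 123 CPM in Txnip-KO and 104, 100 and 101 CPM in WT in the Pf4 set, a difference of -1.56 in log2 fold change (adjusted p = 0.000724). Pclaf fell in both, by 1.26 more on the log2 scale in the erythroid progenitors. Cpa3, a mast cell protease gene also present in progenitors, had 73.4, 80.4 and 58.2 CPM in Txnip-KO and 59.3, 57.3 and 63.4 CPM in WT among erythroid progenitors, but 6.45, 22.6 and 6.57 CPM in Txnip-KO against 44.3, 31.1 and 39.7 CPM in WT in the Pf4 set.

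Against the Mpo set the effect differed for 1260 of 12001 genes, 10.5%, with 683 positive and 577 negative, and with DESeq2's scaling 812 and 443. With the stricter cell filter they were 564 and 586. The count was 840 without Txnip-KO 2, 879 without WT 1, 666 without WT 2 and 827 without WT 3. Of 43 S phase genes 37 had a negative difference and 0 a positive one (background 4.81% negative). Of the 72 nuclear oxidative phosphorylation genes 15 had a positive difference and 0 a negative one, and of the 13 mitochondrially encoded genes 6 and 0 (background 5.69% positive). Hdc had 37.2, 18.5 and 30.1 CPM in Txnip-KO and 34.1, 40.5 and 26.8 CPM in WT in the Mpo set, against its rise in the erythroid progenitors, a difference of 3.11 (adjusted p = 1.09e-05). Gpr183 differed by 3.07 and Rgcc by 2.22, with log2 fold changes of -0.57 and -0.73 in the Mpo set. Arrdc4 went the other way: it had 33.5, 33.7 and 39.0 CPM in Txnip-KO and 6.54, 5.30 and 6.24 CPM in WT in the Mpo set, so its rise was smaller in the erythroid progenitors by 1.25 on the log2 scale (difference -1.25, adjusted p = 0.000106). Its knock-out levels overlap between the sets and its WT levels do not.

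Against the Hlf set the effect differed for 756 of 12590 genes, 6.0%, with 506 positive and 250 negative. That balance turned to 317 and 440 with the stricter cell filter, 406 and 493 with doublets removed, 582 and 663 with no filter on low counts and 230 and 253 without WT 1. The count was 502 without Txnip-KO 2 and 483, 363 and 355 without WT 1, 2 and 3. Of 43 S phase genes 13 had a negative difference (background 1.99%), and of 13 mitochondrially encoded genes 8 a positive one (background 4.02%). The lipoprotein gene Apoe had 281, 321 and 397 CPM in Txnip-KO and 200, 172 and 158 CPM in WT in the Hlf set, while it had 977, 1463 and 1639 CPM in Txnip-KO and 1886, 1938 and 1890 CPM in WT in the erythroid progenitors, a difference of -1.43 (adjusted p = 1.77e-06). Mfsd2b, a sphingolipid exporter of red cells and platelets, rose in the Hlf set with a log2 fold change of 1.40 and had 0.11 in the erythroid progenitors, a difference of -1.29. Epor likewise had 1.02 in the Hlf set and -0.25 in the erythroid progenitors, at 1.67, 1.83 and 3.15 CPM in Txnip-KO and 1.11, 1.01 and 1.09 CPM in WT of the Hlf set.

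**Figure D4:**
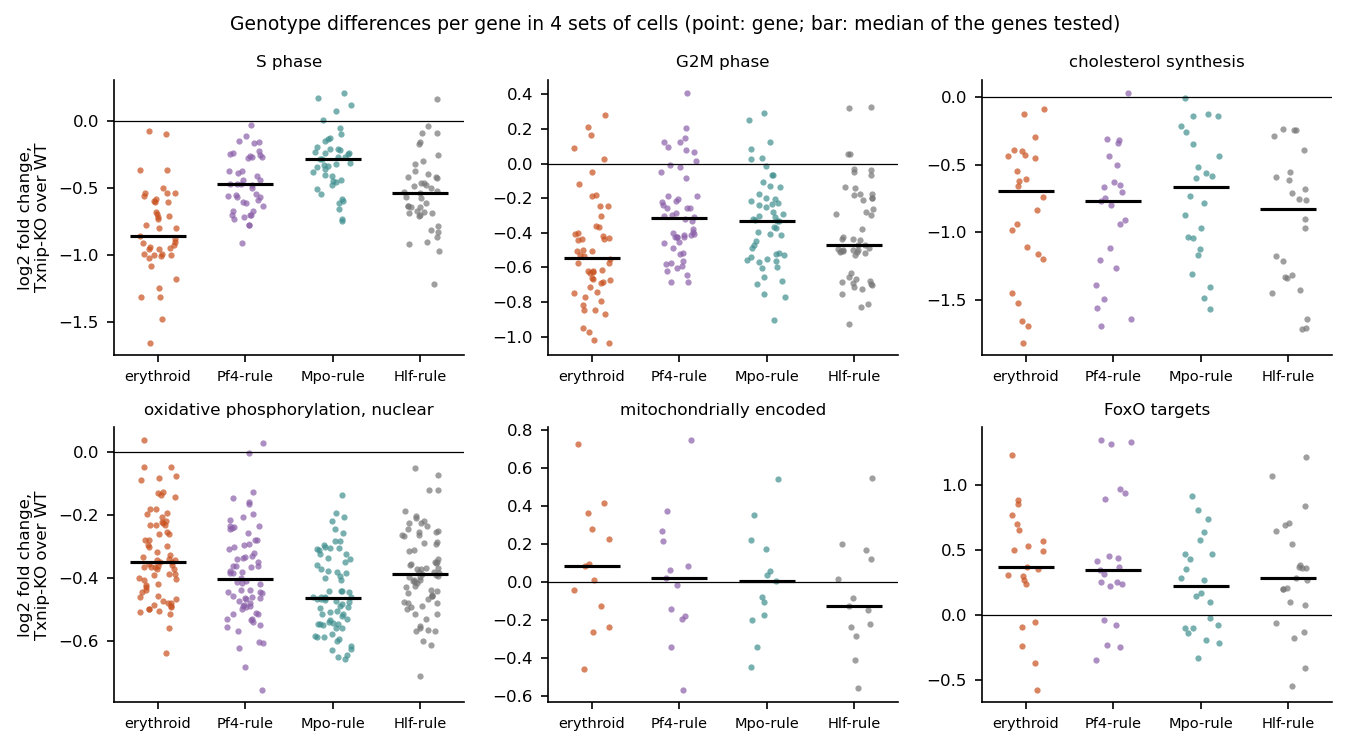
Log2 fold change (Txnip-KO over WT) of each tested gene (point) of 6 lists in erythroid progenitors and in the Pf4, Mpo and Hlf sets, with the median as a bar. The S phase median is lowest in the erythroid progenitors (-0.86), while the cholesterol and FoxO target panels overlap widely between the 4 sets.

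Within the erythroid progenitors the genotype difference was present at both ends of the maturity score. In the early range 1401 of 9815 genes changed, 14.3%, with 666 higher (6.79%) and 735 lower (7.49%). The count was 465 without WT 2 and 868 without WT 3, and 2162 with the replicate number as a block. In the late range 1505 of 9854 changed, 15.3%, with 761 higher (7.72%) and 744 lower (7.55%), and 566 without WT 2 and 724 without WT 3. S phase genes fell in 34 of 43 in the early and 31 of 43 in the late range, with medians of -0.97 and -0.50. Cholesterol genes fell in 12 of 23 and 11 of 24, with medians of -0.98 and -0.57. Nuclear oxidative phosphorylation genes fell in 37 of 72 early and 15 of 72 late, and ribosome biogenesis genes in 14 of 31 and 3 of 31. The mitochondrially encoded genes rose in 2 of 13 early and 7 of 13 late. Of the neutrophil markers 2 could be tested in each range, S100a8 and S100a9, and both were higher in Txnip-KO in both. S100a8 had 1105, 4.33 and 87.8 CPM in Txnip-KO and 3.93, 4.80 and 4.19 CPM in WT in the early range (log2 fold change 6.47, adjusted p = 0.0132, edgeR), and 15.3, 2.73 and 81.3 CPM in Txnip-KO and 2.61, 6.07 and 3.78 CPM in WT in the late range (3.14, adjusted p = 0.0198). Txnip-KO 1 and 3 were high and Txnip-KO 2 was among the WT values. Over all progenitors 1 of 10 neutrophil markers tested rose, and S100a8 and S100a9 did not pass. Those 10 markers summed to 522 CPM over all progenitors in WT 1, whose S100a8 level was low in both ranges. The part of neutrophil RNA in the result was not tested.

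Txnip stood at 6.12, 7.23 and 0.763 CPM in Txnip-KO and 561, 273 and 448 CPM in WT in the early range. In the late range it stood at 2.41, 2.59 and 0.210 CPM in Txnip-KO and 331, 201 and 253 CPM in WT, below the early level in each sample. Lars2 and Oxct1 fell in both ranges, Lars2 with -2.25 early and -2.16 late and Oxct1 with -2.02 early and -1.50 late. Trnp1, Mt2 and Polr3gl rose in both, Mt2 with 3.23 early and 2.42 late. Fam178b was counted 170, 38 and 265 times in all Txnip-KO progenitors and 3, 5 and 5 times in all WT ones, a ratio of 32.1 (exact 95% interval from 18.6 to 60.8). In the late range it had 31.8, 4.47 and 23.1 CPM in Txnip-KO and 0.563, 0.708 and 0.223 CPM in WT.

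The test of the difference between the ranges called 201 of 10401 genes, 1.93%, of which 177 were positive (1.70%), meaning a higher fold change late than early, and 24 negative (0.231%). The count was 94 without Txnip-KO 1, 133 without Txnip-KO 3, 73 without WT 2 and 97 without WT 3. For 9 of 43 S phase genes and 8 of 13 mitochondrially encoded genes the difference was positive, and for 0 of either it was negative. C1qtnf12, a secreted protein of the C1q family, had the largest positive difference among the genes named, 2.01 (adjusted p = 5.88e-07). In the late range it had 135, 156 and 253 CPM in Txnip-KO and 63.6, 57.6 and 72.5 CPM in WT, and in the early range 29.2, 30.5 and 38.9 CPM in Txnip-KO and 41.9, 43.5 and 51.4 CPM in WT. The order of the groups is reversed between the ranges, with no overlap in either, though the early difference did not pass on its own (adjusted p = 0.0618). Aldh1a1, a retinaldehyde dehydrogenase, had log2 fold changes of 0.61 late and -0.83 early and a difference of 1.48 (adjusted p = 0.00522).

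**Figure D5:**
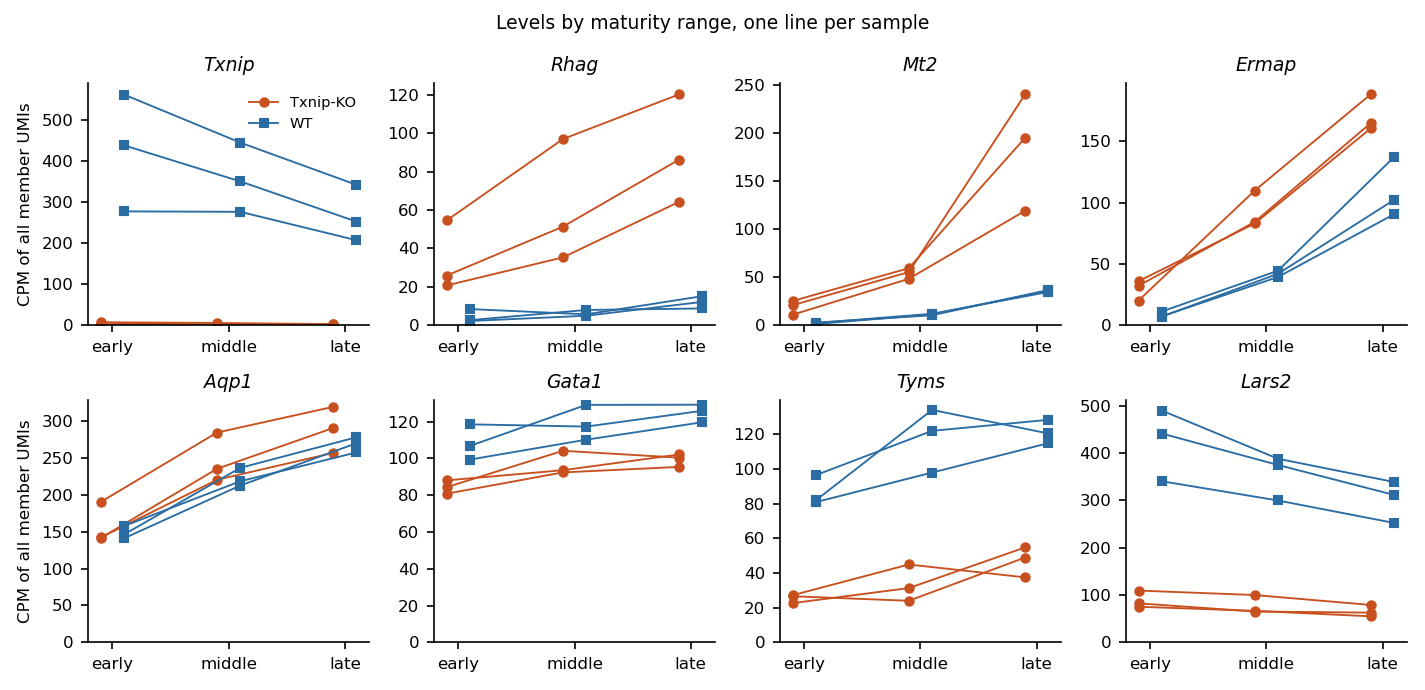
CPM of all progenitor UMIs in the early, middle and late ranges of the maturity score for 8 genes, one line per sample, Txnip-KO as circles and WT as squares. Txnip lies near 0 in every Txnip-KO range and Rhag lies higher in Txnip-KO in each range; Rhag, Ermap and Aqp1 are genes of the score, so their climb from early to late is part of how the ranges were made.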

How the data were processed

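RNA of sorted bone marrow cells was measured with the 10x Chromium Single Cell 3' kit, version 3.1, per the labels' protocols. The authors deposited raw UMI counts per gene and barcode for each of 6 samples. The submitters' processing notes list Seurat 2.3.4, Cell Ranger 6.1.1 and CASAVA 1.8. Neither the genome build nor the use of strand in counting is given in the sources used here, so overlapping and antisense genes are uncertain. The files hold 48277 barcodes and 31253 features, of which 31107 IDs were found in the reference names. Of these barcodes 44399 passed the filter. Symbols with more than one ID, 43 in all, were counted apart.

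Counts of the chosen cells were summed per sample, since cells are not replicates. Genes were tested with edgeR 4.0.16 (filterByExpr, TMM scaling, quasi-likelihood test, Benjamini-Hochberg adjusted p under 0.05 over all genes tested) in R 4.3.3. The fits were also run on simulated counts whose spread was fixed in advance and not taken from these data, so that run checks the code only. Each SE given is the absolute log2 fold change divided by the square root of the F value of the quasi-likelihood test. Differences between sets of cells were tested as an interaction with the sample as a block. Shares and medians per sample were compared with two-sided exact permutation tests, whose smallest p is 0.1. Phases were called with scanpy 1.11.5 from 43 S and 52 G2M genes. Doublets were kept, and an alternative removed the cells with the highest Scrublet scores, 0.8% per 1000 barcodes. Erythroid progenitors so removed were 29 of 417, 82 of 775 and 84 of 876 in Txnip-KO. In WT they were 24 of 438, 27 of 620 and 29 of 557, a smaller part of each sample. Without them 3227 of 10815 genes changed. Further settings tried were a block for the replicate number, leaving out each sample, keeping genes of low counts, the size factors of DESeq2 1.42.0, the Wald test of the same tool, stricter filters and rule, thinning to 5000 UMIs, matched maturity ranges and cells called G1. Leaving out globin-high cells or cells with other lineage genes, and splitting shares by phase or maturity, were chosen after seeing the data. Intervals of count ratios are exact and cover counting error only.

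Same-numbered samples had correlations of 0.247, 0.106 and 0.131 between their deviations from the group means. Txnip-KO 2 and WT 3, of unlike number, stood at 0.101. The labels give no reason for a pairing, and these values do not settle whether the numbers pair the samples. The tests of genotype carry no pairing; the block for the replicate number is an alternative, with 4065 genes in place of 3352. Members and gene lists were chosen with earlier results of these data known. Genes named were Txnip, the genes of the rule with Ermap and Aqp1, and the 12 largest rises and 12 largest falls among changed genes that averaged 10 CPM or more and whose groups did not overlap. To these came the 4 genes of smallest p per list (8 for erythroid lists) and the 5 largest differences in each direction per interaction and per maturity range. Genes named in the text that did not pass the test, and Gata1, were otherwise chosen after their values were seen. Promoter sequences are from RefSeq (GRCm38.p6).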

Additional observations from a re-analysis of the deposited data

Results flagged for a closer look

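For the genes below the genotype effect in the erythroid progenitors differed from that in another set of cells, by the interaction test in edgeR. Each value is the difference of the log2 fold changes (Txnip-KO over WT), erythroid progenitors minus the other set.

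Against the Pf4 set the positive differences were 2.95 for Prss34, 2.19 for Hbb-bt, 1.81 for Cpa3, 1.48 for Tespa1 and 1.38 for Ifitm1. The basophil protease gene Prss34 had log2 fold changes of -1.21 in the erythroid progenitors and -3.82 in the Pf4 set, so both lie on the same side. The negative differences were -1.56 for Gp5, -1.49 for Cavin3, -1.26 for Pclaf, -1.26 for H2bc14 and -1.21 for Zcwpw1. Cavin3, a protein of the membrane pits called caveolae, had 2.08, 3.51 and 1.59 CPM in Txnip-KO and 8.47, 6.55 and 5.13 CPM in WT erythroid progenitors. Prss34, Hbb-bt, Ifitm1, H2bc14 and Zcwpw1 no longer passed when one or more of the samples was left out.

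Against the Mpo set the positive differences were 3.11 for Hdc, 3.07 for Gpr183, 2.46 for Hp, 2.22 for Rgcc and 2.09 for Slc28a2. The negative ones were -2.12 for Txnip, -1.77 for Slamf1, -1.34 for Sapcd1, -1.32 for Rmi2 and -1.25 for Arrdc4. In WT cells Txnip was at 418, 246 and 327 CPM in the erythroid progenitors and 114, 81.6 and 113 CPM in the Mpo set. Rmi2, of the complex that resolves crossed DNA strands, had log2 fold changes of -1.43 in the erythroid progenitors and -0.14 in the Mpo set. Hp did not pass without WT 3, and Sapcd1 without WT 2 or WT 3.

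Against the Hlf set the positive differences were 4.07 for Hba-a1, 2.46 for Ebf1, 2.39 for Hdc, 2.31 for Gpr183 and 2.18 for Slc28a2. The negative ones were -1.60 for Gp5, -1.43 for Apoe, -1.32 for Sapcd1, -1.29 for Mfsd2b and -1.25 for Epor. The B cell factor Ebf1 was at 4.01, 4.55 and 9.03 CPM in Txnip-KO and 21.0, 19.4 and 54.0 CPM in WT in the Hlf set. Ebf1 did not pass without Txnip-KO 2, WT 1, WT 2 or WT 3, and Sapcd1 did not pass without WT 2.

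Between the late and the early range, taken as late minus early, the positive differences were 2.01 for C1qtnf12, 1.91 for Ccne2, 1.90 for Myh10, 1.48 for Aldh1a1 and 1.36 for Bex4. The negative ones were -2.02 for Ccl9, -0.93 for Cd52, -0.88 for Zg16, -0.72 for Vim and -0.71 for Tmem176a. Vimentin, encoded by Vim, had 259, 374 and 192 CPM in Txnip-KO and 506, 516 and 584 CPM in WT in the late range. C1qtnf12 and Aldh1a1 kept the call with each sample left out, and each of the other 8 lost it without WT 2.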

How the results depend on the processing

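Leaving out each sample gave between 1737 and 3681 changed genes in the erythroid progenitors, 465 to 1299 in the early and 566 to 1796 in the late range. The interaction counts then ran from 40 to 266 against the Pf4 set, 666 to 1215 against the Mpo set, 355 to 762 against the Hlf set and 73 to 223 between the ranges. In the erythroid progenitors 1543 genes changed with barcodes thinned before the rule, 1893 with matched maturity ranges and 858 among cells called G1; these sums hold fewer UMIs. With no filter on low counts the interaction counts were 537 (Pf4), 1245 (Hlf) and 382 (ranges), and with doublets removed the Pf4 count was 303. The Wald test of DESeq2 called 906 genes early and 965 late. With the replicate number as a block the early count was 2162; of the 134 changed genes named, Gp9 alone lost its call under the block. The share of progenitors turned to -0.246 points under the stricter rule. Of those 134 genes 65 kept their call under every alternative in which they could be tested; some could not be among cells called G1 (119 tested) or with thinned barcodes (127). Directions reversed for Hbb-bs without globin-high cells (-1.31), which were left out by the globin counts themselves. They also reversed for Mthfd2 (0.035), Cdk1 (0.18) and Fcgr3 (-0.022) among cells called G1, for Ms4a2 (-0.17) with matched ranges and for Ctsg (-0.23) with thinned barcodes. The cause was not tested.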
